A study of Mus musculus with 6 samples.

Results

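Genes of cholesterol and fatty acid synthesis were examined in the mRNA of CD4+ T cells, which are mostly helper lymphocytes, from lean and obese mice. The set held 37 genes listed by symbol, 20 in a sterol arm and 17 in a fatty acid arm. All 37 were found among the 22899 genes of each expression table. The lean group was C57BL/6 mice on a normal diet. The obese group was C57BL/6 mice on a high-fat diet with 60 kcal% fat. For both groups, feeding is listed as beginning for the most part at 6 to 8 weeks of age and lasting up to 4 months. Spleen CD4+ cells were purified from both groups by flow cytometry, and each group was represented by 3 libraries. Sex, age at harvest and the makeup of the normal diet are not given in the labels. Neither do they say whether a library came from 1 mouse or from pooled animals, so the p-values rest on the spread of these libraries, which may be technical.

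Cholesterol is built from acetyl-CoA through mevalonate, isoprenoid units and squalene, and fatty acids are built from the same acetyl-CoA through malonyl-CoA. Transcription of both pathways is driven by the SREBP factors, SREBP2 (gene Srebf2) mainly for sterol genes and SREBP1 (gene Srebf1) mainly for fatty acid genes, and sterols hold both back in the endoplasmic reticulum through INSIG proteins. T cells raise both pathways when they are activated and divide, because new membrane is needed, and resting T cells keep them low.

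The promoters of these genes were read first, because SREBPs and their partner NF-Y act there. RefSeq windows on GRCm38.p6 covering the 250 bases before an annotated transcript start were at hand for 30 of the 37 genes. Fdps, Fdft1, Sqle, Stard4, Scd1, Scd2 and Fads1 had no window and were not searched. Some genes had more than 1 window (37 windows in all), and a match in any of them counted for the gene. The exact letters were searched on both strands, so near matches were not counted. CCAAT, the box bound by NF-Y, lay in at least 1 window of 25 of the 30 genes (83.3%). The share was 40.9% of 8761 tested genes and 37.5% of 27025 genes with a window. CCAAT was present for 16 of 16 sterol genes and 9 of 14 fatty acid genes that had a window. TCACNCCAC, a form of the sterol regulatory element, was found in Hmgcs1 only (3.3%, against 1.19% of tested genes). Its core CACNCCAC, which the longer form contains, was found in Hmgcs1, Insig1, Acsl4 and Slc25a1 (13.3%, against 6.63%). The E-box CACGTG occurred in 6 of the 30 genes, against 10.1% of tested genes, and the GC box GGGCGG in 24 (80.0%, against 63.3%). A match describes letters in the window and is neither a shown site nor a cause.

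5 windows are printed, 5′ to 3′ in the direction of transcription, with the core CACNCCAC and CCAAT in capitals on whichever strand they occur (ATTGG is CCAAT on the other strand, GTGGCGTG the core on the other strand). Hmgcs1 (chr13:119690101-119690350, plus strand) and Slc25a1 (chr16:17928220-17928469, minus strand) are shown for the core element, 1 from each arm. Mvd (chr8:122443423-122443672, minus strand), Srebf2 (chr15:82147019-82147180, plus strand) and Fasn (chr11:120824548-120824797, minus strand) are shown as the genes whose obese libraries all lay below the lean ones in expression with an unadjusted p under 0.05. The Srebf2 stretch has 162 bases and ends before the first exon of the GENCODE vM21 annotation. The Fasn window precedes the listed start and lies within the longer span that RefSeq gives the gene.
Hmgcs1: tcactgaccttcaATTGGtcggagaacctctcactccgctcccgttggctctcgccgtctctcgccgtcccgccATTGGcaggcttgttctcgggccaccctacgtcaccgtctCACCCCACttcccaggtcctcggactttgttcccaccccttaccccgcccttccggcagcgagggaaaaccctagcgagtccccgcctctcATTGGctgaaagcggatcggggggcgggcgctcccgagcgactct
Slc25a1: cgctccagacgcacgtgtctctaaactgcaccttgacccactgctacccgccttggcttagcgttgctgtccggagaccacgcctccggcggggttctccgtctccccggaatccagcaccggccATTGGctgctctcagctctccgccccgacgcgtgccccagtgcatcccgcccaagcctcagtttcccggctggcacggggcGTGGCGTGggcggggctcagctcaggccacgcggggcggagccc
Mvd: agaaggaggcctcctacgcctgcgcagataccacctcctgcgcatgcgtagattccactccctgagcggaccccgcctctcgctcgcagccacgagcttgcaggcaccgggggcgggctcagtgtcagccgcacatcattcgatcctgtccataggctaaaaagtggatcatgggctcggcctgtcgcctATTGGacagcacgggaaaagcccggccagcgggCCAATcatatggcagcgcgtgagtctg
Srebf2: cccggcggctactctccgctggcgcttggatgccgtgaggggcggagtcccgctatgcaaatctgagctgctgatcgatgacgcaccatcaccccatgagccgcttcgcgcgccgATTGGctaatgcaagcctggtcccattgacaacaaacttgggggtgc
Fasn: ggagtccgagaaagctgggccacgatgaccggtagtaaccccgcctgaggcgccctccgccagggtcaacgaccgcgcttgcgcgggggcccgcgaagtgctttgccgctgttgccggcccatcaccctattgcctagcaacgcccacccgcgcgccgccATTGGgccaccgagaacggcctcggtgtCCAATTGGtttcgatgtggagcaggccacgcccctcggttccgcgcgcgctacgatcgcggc
In the Hmgcs1 window the core began 136 bases before the start, between CCAAT boxes that began 176 and 45 bases before it. The Slc25a1 core began 44 bases before the start. The Mvd window held CCAAT on both strands, 60 and 27 bases before the start, and the Fasn window held a pair of overlapping boxes 62 and 59 bases before it.

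Expression was given as FPKM, in which the fragments counted for a gene are scaled to the length of its transcript and to the fragments mapped in the library, so levels can be compared between genes per length. FPKM summed to between 595106 and 656303 per library, and the sequencing depth is unknown because no counts were used here. Cd3e, a T cell receptor subunit, ranged from 346.2 to 454.9 FPKM. Cd4 stood at 339.9 ± 20.3 FPKM in the lean and 309.4 ± 26.0 FPKM in the obese libraries (SD, n = 3 each), and none of the 9 T cell markers passed the test (limma, adjusted p from 0.211; 0 with an unadjusted p under 0.05). Other cells were present too. All 16 monocyte and macrophage markers were higher in obese libraries, with a summed level of 809.2 to 888 FPKM in the lean and 1919 to 2125 FPKM in the obese libraries. All 10 tested erythroid markers were also higher, summing to 174.3 to 474.9 FPKM in the lean and 4357 to 29030 FPKM in the obese libraries, with Alas2, the erythroid enzyme of haem synthesis, at 0.66 to 2.19 FPKM and 15.84 to 111.8 FPKM. Of the neutrophil markers 7 of 13 were called as lower, S100a8 among them (142.2 ± 21.0 FPKM in lean, 56.5 ± 25.7 FPKM in obese libraries), as were 3 of 9 NK cell markers. The difference was negative for 12 of 13 neutrophil and 7 of 9 NK cell markers. Over all tested genes 5.77% were called as higher and 0.519% as lower (limma, adjusted p under 0.05). An unadjusted p under 0.05 was found for 25.9% of them, and a negative difference for 29.2%. 1 of 7 plasma cell markers and 3 of 12 proliferation markers, among them Mki67, were called as higher. At an unadjusted p under 0.05 these were 7 of 7 and 8 of 12, all markers of both lists having a positive difference. All 10 B cell markers had a positive difference as well, 3 with an unadjusted p under 0.05, but none of 10 B cell, 5 dendritic cell, 6 platelet and 2 CD8 T cell markers was called. B cell Cd79a averaged 231.9 FPKM in the lean and 290.0 FPKM in the obese libraries, and adipocyte Adipoq between 0.04 and 0.54 FPKM. The 1 adipocyte marker above the filter, Fabp4, which macrophages also express, was higher. Pearson correlations of log2 values over the tested genes were 0.989 to 0.995 for pairs of 1 group and 0.971 to 0.987 for pairs across groups, and genes are no independent replicates.

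The comparison of obese with lean libraries asked whether diet-induced obesity was accompanied by other transcript levels in these cells. None of the 37 lipid synthesis genes was called as changed. Each difference is the obese minus the lean mean of log2(FPKM + 1), tested with limma, and a gene was called at a Benjamini-Hochberg adjusted p under 0.05 over all 10788 genes that reached 1 FPKM in 3 or more of the 6 libraries. 35 of the 37 genes passed that filter, and adjusted p ranged from 0.116 to 0.977 among them. Over all tested genes 6.28% were called, 5.77% higher and 0.519% lower in obese libraries. Of those calls 91.7% were higher, against 71.1% under median-of-ratios and 74.2% under quantile scaling. 5 of the 35 genes, Fdps, Mvd and Srebf2 of the sterol arm and Fasn and Fads2 of the fatty acid arm, had an unadjusted p under 0.05, against 25.9% of all tested genes. The lean and obese ranges did not overlap for 2 genes that were higher in obese libraries, Acly and Fads1, against 25.4% of all tested genes. They did not overlap for 4 genes that were lower in obese libraries, Mvd, Srebf2, Fasn and Elovl1, against 6.15% of all tested genes. The 95% confidence interval of the difference lay within ±0.5 log2 units for 26 of the 35 genes and within ±1 for 33. In bulk RNA, fewer cells of a type and less RNA per cell cannot be told apart.

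**Figure D1:**
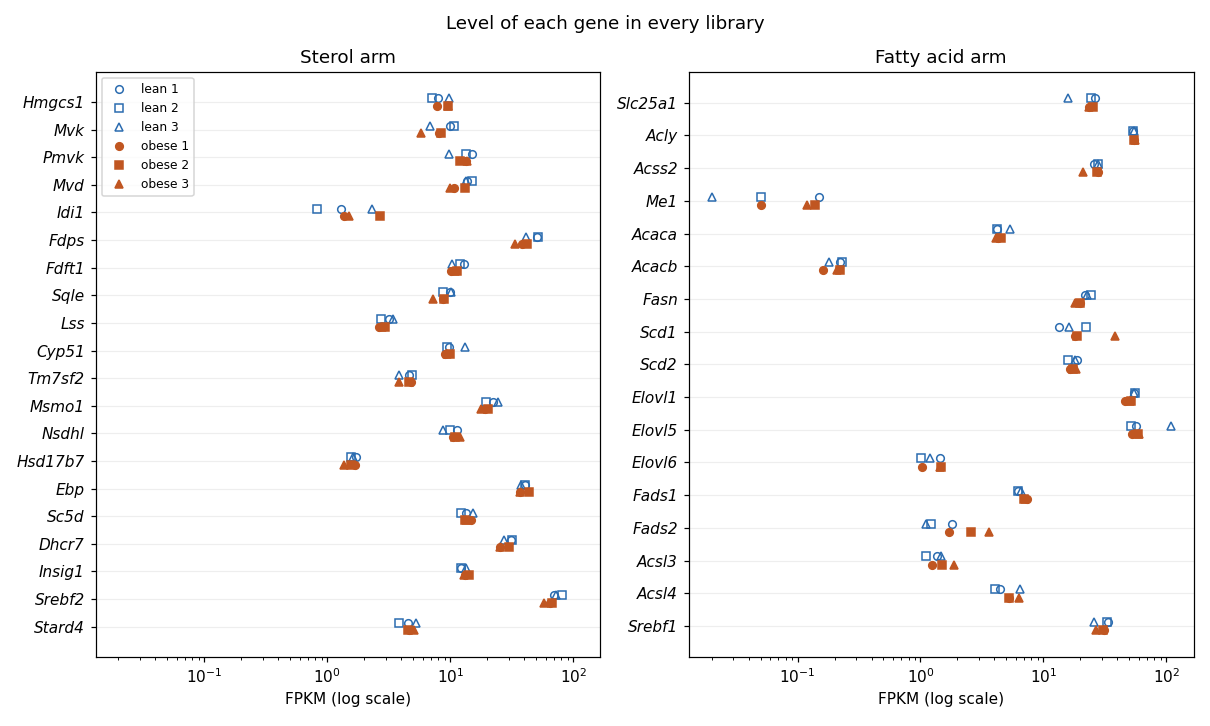
FPKM of each of the 37 genes in every library on a log axis, with the sterol arm on the left and the fatty acid arm on the right (open blue symbols, lean 1 to 3; filled orange symbols, obese 1 to 3). Most genes show intermixed lean and obese symbols, Elovl5 has a single high point in lean 3 and Scd1 a single high point in obese 3.

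The sterol arm held 17 enzymes and 3 regulators or carriers, and its expression spanned from below 2 FPKM on average for Hsd17b7 (1.59) and Idi1 (1.66) to 69.1 FPKM for Srebf2. All 20 genes were tested. The difference was negative for 13 (65.0%, against 29.2% of all tested genes) and positive for 7, with a median of −0.08 and a range from −0.33 to 0.22. These shares of negative differences, here and below, hold for FPKM without rescaling. Under median-of-ratios and quantile scaling the median of all tested genes was itself negative (−0.03 in both). That of the sterol arm was then −0.20 and −0.26. For 17 of the 20 (85.0%), the 3 lean libraries alone spanned more than the difference between the groups, as did 68.7% of all tested genes.

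Among the early enzymes, Hmgcs1, which makes the HMG-CoA that is turned into mevalonate, was at 8.00, 7.17 and 9.83 FPKM in the lean and 7.85, 9.60 and 9.63 FPKM in the obese libraries. The groups overlapped, and the difference was 0.11 ± 0.13 (SE; limma, adjusted p = 0.631). Mvk, mevalonate kinase, was at 9.92, 10.75 and 6.86 FPKM in the lean and 8.11, 8.46 and 5.74 FPKM in the obese libraries. Lean 3 and obese 3 were the low libraries of their groups, and the difference of −0.27 ± 0.18 did not pass the test (limma, adjusted p = 0.380) and was −0.11 without obese 3. Pmvk, the next kinase of the pathway, averaged 12.7 ± 2.66 FPKM in the lean and 13.01 ± 0.83 FPKM in the obese libraries (SD, n = 3 each).

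Mvd, the decarboxylase that yields isopentenyl diphosphate, was at 13.65, 14.93 and 13.41 FPKM in the lean and 10.78, 13.21 and 10.01 FPKM in the obese libraries. Every lean library lay above every obese one, though obese 2 lay close to the lean range. Its difference was −0.29 ± 0.11 with a 95% interval from −0.55 to −0.03 (limma, adjusted p = 0.157). Idi1, the isomerase of the same unit, was at 1.28, 0.83 and 2.30 FPKM in the lean and 1.37, 2.70 and 1.5 FPKM in the obese libraries. It varied 3.25-fold over the libraries, with lean 2 lowest and obese 2 highest, and the interval of its difference of 0.22 ran from −0.32 to 0.77 (limma, adjusted p = 0.581). Without obese 2 the difference was 0.022. Reads of Idi1 may be shared with its close relative Idi2, so its level is less certain.

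Fdps (chr3:89093588-89101967 on GRCm38.p6), farnesyl diphosphate synthase, which feeds sterols as well as protein prenylation, had the highest mean of the sterol enzymes, 42.95 FPKM. It was at 50.79, 51.67 and 41.35 FPKM in the lean and 38.46, 41.98 and 33.46 FPKM in the obese libraries. Lean 1 and lean 2 lay above all obese libraries, and lean 3 lay just under obese 2. The difference of −0.33 ± 0.11, the most negative of the 35 genes, had an interval from −0.59 to −0.07 and did not pass the test (limma, adjusted p = 0.120).

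After farnesyl diphosphate the pathway is committed to sterols. Fdft1, squalene synthase, was at 12.87, 12.06 and 10.38 FPKM in the lean and 10.17, 11.24 and 10.83 FPKM in the obese libraries. The groups overlapped, with a difference of −0.12 ± 0.10 (limma, adjusted p = 0.498). Sqle, the squalene epoxidase that limits this branch, was at 9.89, 8.68 and 10.23 FPKM in the lean and 8.79, 8.90 and 7.19 FPKM in the obese libraries. Here obese 3 was the lowest library, and the difference was −0.19 ± 0.11 (limma, adjusted p = 0.307).

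The later enzymes, which make lanosterol and turn it into cholesterol, differed by −0.19 to 0.15. Nsdhl, a dehydrogenase that helps remove the C4 methyl groups, had the positive end, at 11.45, 9.99 and 8.70 FPKM in the lean and 10.61, 10.99 and 11.92 FPKM in the obese libraries. Its lean and obese ranges overlapped (0.15 ± 0.11; limma, adjusted p = 0.437). The negative end was Msmo1, the oxidase that acts on the same methyl groups, with means of 22.0 ± 2.46 FPKM in the lean and 19.1 ± 1.31 FPKM in the obese libraries (SD, n = 3 each). Between them lay Cyp51, Dhcr7, Lss, Hsd17b7, Ebp, Tm7sf2 and Sc5d, the smallest adjusted p being 0.322 for Dhcr7 (limma). Over all 17 enzymes the median difference was −0.11, and 12 were negative (70.6%, against 29.2% of all tested genes). The summed level of the 17 enzymes was 240.1 to 259.8 FPKM in the lean and 214.3 to 245.5 FPKM in the obese libraries.

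The regulators did not share a direction. Srebf2, which encodes SREBP2, was the highest gene of the set, at 69.77, 81.31 and 73.10 FPKM in the lean and 65.09, 67.18 and 58.03 FPKM in the obese libraries. All lean libraries lay above all obese ones, and the difference was −0.23 ± 0.09 with an interval from −0.43 to −0.03 (limma, adjusted p = 0.142). Insig1, both a target of SREBPs and the protein that retains them, was at 12.32, 12.23 and 13.32 FPKM in the lean and 13.11, 14.12 and 13.01 FPKM in the obese libraries. Its groups overlapped, and the interval of its difference of 0.08 ran from −0.11 to 0.28 (adjusted p = 0.576). Stard4, a cytosolic sterol carrier, averaged 4.54 ± 0.75 FPKM in the lean and 4.71 ± 0.28 FPKM in the obese libraries (SD, n = 3 each).

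**Figure D2:**
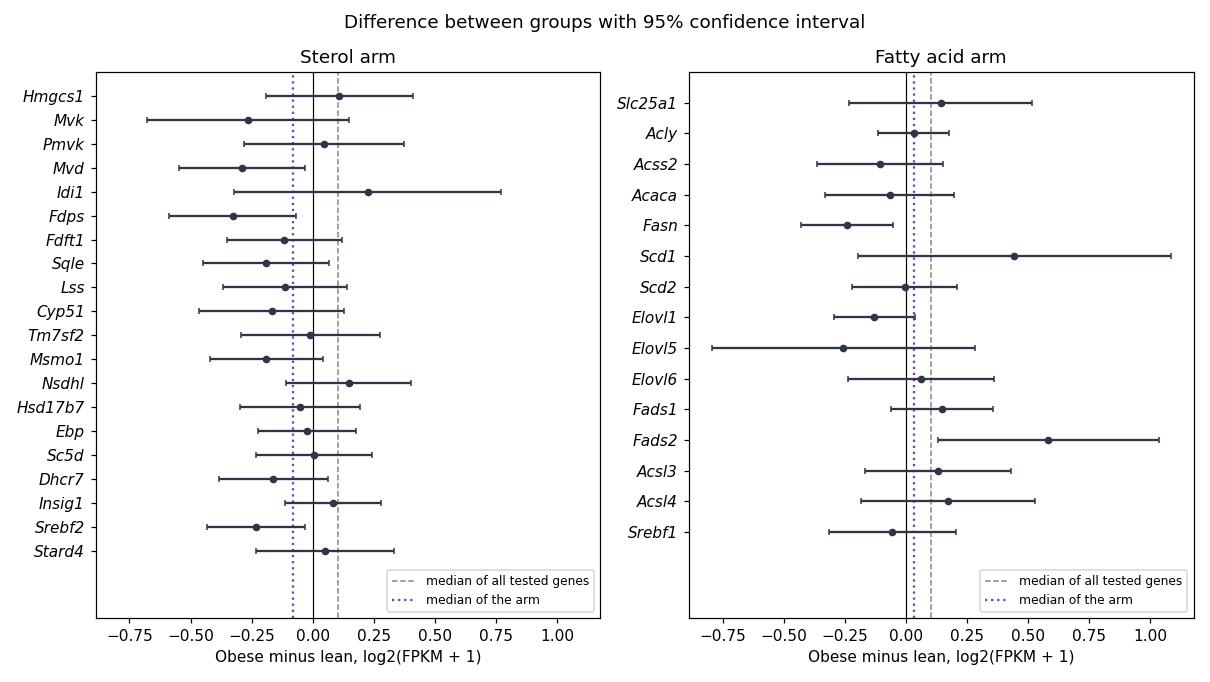
Difference of each tested gene, obese minus lean in log2(FPKM + 1), as a point with its 95% confidence interval from limma, for 20 sterol genes (left) and 15 fatty acid genes (right). The dotted line is the median of the arm (−0.08 and 0.03) and the dashed line the median of all tested genes (0.10); 5 intervals, those of Mvd, Fdps, Srebf2, Fasn and Fads2, do not reach 0.

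The fatty acid arm covered precursor supply, synthesis, desaturation and elongation, activation and the factor Srebf1. 15 of its 17 genes were tested, 7 with a negative difference (46.7%, against 29.2% of all tested genes) and 8 with a positive one. The median was 0.03 within a range from −0.26 to 0.58. Acacb, the mitochondrial acetyl-CoA carboxylase, lay at 0.16 to 0.23 FPKM and Me1, the cytosolic malic enzyme, at 0.02 to 0.15 FPKM in the 6 libraries, both below the filter.

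Acly, which splits citrate into cytosolic acetyl-CoA and so supplies both arms, was the steadiest of the 37 genes. It was at 53.79, 53.24 and 54.18 FPKM in the lean and 54.93, 54.82 and 55.18 FPKM in the obese libraries. Although the groups did not overlap, the difference was only 0.03 ± 0.06, with an interval from −0.11 to 0.18 (limma, adjusted p = 0.780). Slc25a1, the carrier that exports citrate from mitochondria, averaged 22.1 ± 5.54 FPKM in the lean and 24.0 ± 0.96 FPKM in the obese libraries (SD, n = 3 each), with lean 3 lowest at 15.83 FPKM. Acss2, which makes acetyl-CoA from acetate, averaged 27.1 FPKM in the lean and 25.3 FPKM in the obese libraries, with obese 3 lowest at 20.84 FPKM.

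Fasn, fatty acid synthase, was at 21.88, 24.48 and 22.62 FPKM in the lean and 19.92, 19.71 and 18.23 FPKM in the obese libraries. The groups did not overlap. Its difference of −0.24 ± 0.08 had an interval from −0.43 to −0.05 and did not pass the test (limma, adjusted p = 0.117). Acaca, the carboxylase that makes malonyl-CoA for Fasn, was at 4.23, 4.19 and 5.37 FPKM in the lean and 4.31, 4.51 and 4.15 FPKM in the obese libraries. Lean 3 was high and the other 5 libraries lay close together (−0.07 ± 0.12; limma, adjusted p = 0.750).

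The stearoyl-CoA desaturases, which make oleate and palmitoleate, differed in spread, with a highest library 2.86 times the lowest for Scd1 and 1.18 times for Scd2. Scd1 was at 13.39, 22.43 and 16.26 FPKM in the lean and 17.97, 18.62 and 38.28 FPKM in the obese libraries. A single library, obese 3, was high, and the interval of the difference of 0.44 ± 0.28 ran from −0.20 to 1.08 (limma, adjusted p = 0.343). Without obese 3 the difference was 0.10. Scd2 was at 18.77, 15.86 and 18.15 FPKM in the lean and 16.40, 17.58 and 18.51 FPKM in the obese libraries, and its difference was −0.01 ± 0.09 (limma, adjusted p = 0.975). Both genes are close relatives, so reads may have been split between them. Obese 3, the library with the high Scd1 value, was the highest library for 39.2% of all tested genes. It was so for all 12 proliferation, 10 B cell, 7 plasma cell, 5 dendritic cell and 2 CD8 T cell markers tested. The count was 5 of 10 for erythroid, 2 of 9 for NK cell and 1 of 16 for monocyte and macrophage markers. It was 1 of 13 for neutrophil, 0 of 9 for T cell and 0 of 6 for platelet markers. The part of these markers in the Scd1 result was not tested. Proliferation markers summed to 217.8 to 262.6 FPKM in the lean and 270.6 to 375.9 FPKM in the obese libraries, and B cell markers to 394.2 to 852.6 FPKM and 568.3 to 1082 FPKM; no marker of these lists was at 0 in all 6 libraries.

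Fads2, the delta-6 desaturase of polyunsaturated fatty acids, had the largest difference of the 35 tested genes, at a low level. It was at 1.82, 1.22 and 1.12 FPKM in the lean and 1.71, 2.59 and 3.58 FPKM in the obese libraries. Obese 1 fell within the lean range, and the difference was 0.58 ± 0.20 with an interval from 0.13 to 1.04 (limma, adjusted p = 0.116). Obese 3 was again the highest library. Fads1, the delta-5 desaturase, averaged 6.33 ± 0.21 FPKM in the lean and 7.11 ± 0.21 FPKM in the obese libraries without overlap (SD, n = 3 each), a difference of 0.15 ± 0.09 (limma, adjusted p = 0.335).

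Of the elongases, Elovl5, which extends polyunsaturated chains, was at 57.07, 51.47 and 108.3 FPKM in the lean and 52.88, 58.36 and 60.20 FPKM in the obese libraries. The difference of −0.26 ± 0.24 (limma, adjusted p = 0.519) rested on lean 3, and without that library it was 0.07. Elovl1, which extends saturated and monounsaturated very long chains, was at 54.19, 55.30 and 54.11 FPKM in the lean and 46.38, 52.08 and 51.02 FPKM in the obese libraries. These groups did not overlap (−0.13 ± 0.07; limma, adjusted p = 0.289). Elovl6, which extends palmitate, lay between 1.01 and 1.47 FPKM over the 6 libraries.

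Acsl4, an acyl-CoA synthetase that prefers arachidonate, was at 4.41, 4.04 and 6.41 FPKM in the lean and 5.29, 5.30 and 6.32 FPKM in the obese libraries. The libraries overlapped, with a difference of 0.17 ± 0.16 (limma, adjusted p = 0.506), and Acsl3, a relative found on lipid droplets, lay between 1.12 and 1.89 FPKM. Srebf1, which encodes SREBP1, was at 33.50, 33.21 and 25.77 FPKM in the lean and 30.94, 30.57 and 26.89 FPKM in the obese libraries. Lean 3 and obese 3 were the low libraries, and the difference was −0.06 ± 0.11 (limma, adjusted p = 0.788).

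Set against each other, both arms had medians near 0. The median difference was −0.08 for sterol genes and 0.03 for fatty acid genes, while the median of all tested genes was 0.10. Relative to that median the sterol arm stood at −0.19 and the fatty acid arm at −0.07, and 17 of 20 sterol genes and 9 of 15 fatty acid genes lay below it. The median over all genes fell with their level, to 0.05 for 5978 genes with a mean of at least 10 FPKM and to −0.03 for 1619 genes with at least 50 FPKM. Median-of-ratios or quantile scaling moved the median of all genes to −0.03 and turned that of the fatty acid arm to −0.12, while that of the sterol arm was −0.26 to −0.0021 over the 4 scalings tried. Relative to the median of all genes, the sterol arm stood at −0.23 to −0.14 and the fatty acid arm at −0.09 to −0.06 over those scalings and with each library left out. The difference between the arms was not tested.

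Within a library, the median level of the sterol genes was 3.69, 3.63 and 3.50 log2(FPKM + 1) in lean and 3.51, 3.60 and 3.51 in obese libraries. That of the fatty acid genes was 4.30, 4.55 and 4.11 in lean and 4.25, 4.29 and 4.29 in obese libraries. Sterol minus fatty acid was therefore −0.62, −0.92 and −0.61 in lean and −0.74, −0.70 and −0.77 in obese libraries, and the obese values lay inside the lean range. Summed FPKM of the sterol arm was 342.5 ± 9.38 in lean and 309.4 ± 20.6 in obese libraries, the lowest lean library (331.8) lying next to the highest obese one (331.3). For the fatty acid arm the sum was 338.3 ± 23.1 in lean and 325.0 ± 12.8 in obese libraries (SD, n = 3 each). Without Elovl5, which was high in lean 3, that sum was 266.1 ± 8.89 in lean and 267.9 ± 9.12 in obese libraries.

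**Figure D3:**
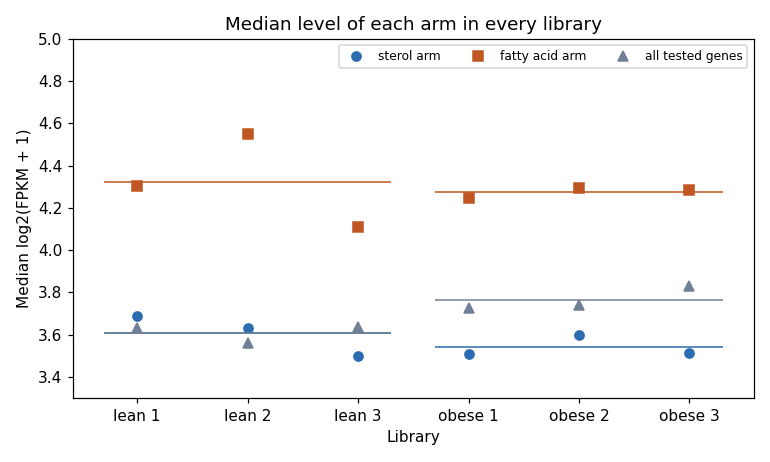
Median log2(FPKM + 1) of the sterol arm (circles), the fatty acid arm (squares) and all tested genes (triangles) in each library, with a horizontal line for the mean of each group of 3 libraries; the vertical axis does not start at 0. The median of all genes is higher in each obese library than in each lean one, whereas the points of both arms overlap between the groups.

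Single libraries stood out in places. Lean 3 was the highest library for 7 of the 20 sterol genes (35.0%), among them Cyp51 at 13.30 FPKM against at most 9.92 FPKM elsewhere, while it was the highest for 14.0% of all tested genes. It was the lowest for 3 of the 20 sterol genes (15.0%), Pmvk among them, and for Slc25a1, Fads2 and Srebf1 of the fatty acid arm, against 23.8% of all tested genes. Obese 3 was the lowest library for 9 of the 20 sterol genes (45.0%), against 13.6% of all tested genes, and the highest for 1 of them, against 39.2% of all tested genes. The T cell markers had a like pattern for obese 3, the lowest library for 7 of 9 (77.8%), but not for lean 3. Lean 3 was the highest library for 0 of 9 T cell markers and the lowest for 0 of 9. Of these markers 8 of 9 had a negative difference (88.9%, against 29.2% of all tested genes). Their median relative to all genes was −0.19, as for the sterol arm (−0.19). Their part in the sterol values was not tested. Among fatty acid genes obese 3 was highest for 4 of 15 and lowest for 3 of 15.

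**Figure D4:**
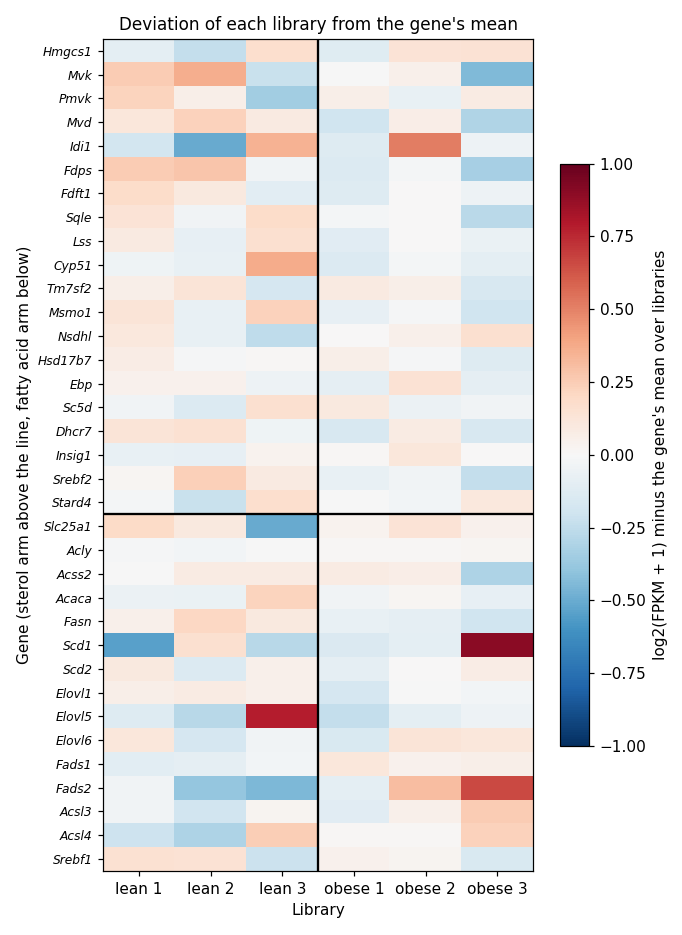
Deviation of each library from the gene's mean over the 6 libraries, in log2(FPKM + 1), for the 35 tested genes (rows; the horizontal line parts the sterol arm above from the fatty acid arm below, and the vertical line parts lean from obese). The deepest red cells are Elovl5 in lean 3 and Scd1 and Fads2 in obese 3, and Idi1 in lean 2, Scd1 in lean 1 and Slc25a1 in lean 3 are the deepest blue.

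In 5 lists of genes around the pathways, 6 of 83 tested genes (7.23%) were called, near the 6.28% of all tested genes. Of 16 tested genes that process SREBPs or sense sterols none was called, 1 had an unadjusted p under 0.05 (25.9% of all tested genes did), and the median difference was 0.17, against 0.10 over all tested genes. That gene was Erlin2, a membrane protein that binds SREBPs and INSIG, with means of 5.93 ± 0.96 FPKM in the lean and 8.48 ± 0.36 FPKM in the obese libraries (0.46 ± 0.12; limma, adjusted p = 0.0601). Faf2, which takes part in degradation at the endoplasmic reticulum, followed with 0.18 ± 0.08 (limma, adjusted p = 0.206). Erlin2 had an adjusted p of 0.0378 without lean 3 and 0.0458 with scaling without haemoglobin and immunoglobulin genes.

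Of 17 genes that use isoprenoids outside sterols, 1 was called, as higher (5.77% of all tested genes were), and the median was 0.12. Trit1, which attaches an isopentenyl group to transfer RNAs, was at 5.66, 5.80 and 5.78 FPKM in the lean and 8.26, 8.4 and 7.47 FPKM in the obese libraries. It rose by 0.42 ± 0.09 (limma, adjusted p = 0.0362), a call that was lost without any library other than lean 3. It was also lost under median-of-ratios scaling (0.29, adjusted p = 0.126), quantile scaling (0.20, adjusted p = 0.318) and without a filter (adjusted p = 0.0735). Of 18 other genes of sterol synthesis, uptake and esterification none was called, 4 had an unadjusted p under 0.05 (25.9% of all tested genes did), and the median was −0.04. Lipa, the lysosomal lipase that frees cholesterol from its esters, averaged 48.9 ± 2.16 FPKM in the lean and 62.5 ± 6.05 FPKM in the obese libraries (0.34 ± 0.09; limma, adjusted p = 0.0551). Acat2, the cytosolic thiolase at the start of the mevalonate pathway, averaged 12.8 ± 0.59 FPKM in the lean and 10.1 ± 0.70 FPKM in the obese libraries (−0.31 ± 0.09; limma, adjusted p = 0.0812). Both crossed the threshold under other settings: Lipa as higher with TPM (limma, adjusted p = 0.0308), with scaling without haemoglobin and immunoglobulin genes (0.0193) and without obese 3 (0.0275), and Acat2 as lower under median-of-ratios (−0.45, 0.028) and quantile scaling (−0.47, 0.0323).

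Calls also fell at the edge of fatty acid synthesis. Of 28 further genes of the pathway 16 were tested, 3 were called, all higher in obese libraries (5.77% of all tested genes were), and the median was 0.18, against 0.10 over all tested genes. Idh1, a cytosolic source of NADPH, was at 5.79, 5.50 and 6.70 FPKM in the lean and 10.88, 9.85 and 9.89 FPKM in the obese libraries and rose by 0.68 ± 0.10 (limma, adjusted p = 0.00703). Hacd4, a dehydratase of chain elongation, rose by 0.62 ± 0.13 (limma, adjusted p = 0.0292) from a mean of 2.20 ± 0.42 to 3.91 ± 0.38 FPKM. Acsl1, an acyl-CoA synthetase, rose by 0.68 ± 0.17 (limma, adjusted p = 0.0498) from 4.42 ± 0.47 to 7.84 ± 2.13 FPKM. Hacd4 was lost without lean 1, lean 2, obese 1 or obese 3, and Acsl1 without any library other than obese 2. Under quantile scaling neither passed (Hacd4 0.38, adjusted p = 0.129; Acsl1 0.46, adjusted p = 0.126), nor without a filter (adjusted p = 0.085 and 0.114). Acsl1 also missed the threshold under median-of-ratios scaling (adjusted p = 0.0618), with a filter on all 6 libraries (0.0543) and without the intensity trend (0.0514).

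Among 18 upstream regulators (AMPK, ChREBP, LXR and NF-Y genes), 16 were tested, 2 were called, both higher (5.77% of all tested genes were), and the median was 0.06. Nr1h3, which encodes the sterol receptor LXR alpha, was at 4.31, 4.71 and 3.87 FPKM in the lean and 15.66, 10.07 and 10.16 FPKM in the obese libraries and rose by 1.27 ± 0.17 (limma, adjusted p = 0.00311). Rxra, its dimer partner, rose by 0.55 ± 0.09 (limma, adjusted p = 0.0115), from 8.04 ± 0.42 to 12.3 ± 0.76 FPKM, and missed the threshold without obese 1 (adjusted p = 0.051) and under quantile scaling (0.38, adjusted p = 0.0706). Idh1 and Nr1h3 passed the test without any single library. Nr1h3, Acsl1 and Lipa are also abundant in macrophages. The cells in which these genes and Idh1, Hacd4, Rxra and Trit1 were higher were not determined. The summed macrophage markers given above moved in the same direction, as did the summed erythroid markers. C1qb, a complement subunit of macrophages, was at 59.1 ± 1.16 FPKM in the lean and 162.6 ± 22.9 FPKM in the obese libraries. No macrophage marker of the list was at 0 in all 6 libraries. The part of the macrophage and erythroid markers in these results was not tested.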

How the data were processed

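RNA of 6 splenic CD4+ T cell libraries was read by HiSeq RNA sequencing, per the labels' protocols. The authors deposited 1 table per library with FPKM per gene; Bowtie and RSEM were used with the builds GRCm38 and mm10, per the submitters' processing notes, which list no versions. For the gene annotation, read filters and strand setting, nothing is stated in the sources at hand. A library's FPKM values share 1 total of mapped fragments, so abundant transcripts such as globins can lower all others. Of 22899 genes per table, 21633 were matched to RefSeq GRCm38.p6 by gene number. A search of low values for whole-read steps gave a score of 0.165 to 0.219 per library, against 0.706 to 0.757 for whole reads simulated at the same lengths, so depth is unknown and precision comes from the spread between libraries alone.

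Samples were grouped by the diet in the labels. The fit used log2(FPKM + 1), with a pseudocount of 1 that understates differences of low genes. Genes that reached 1 FPKM in 3 or more libraries were tested 2-sided with limma 3.58.1 in R 4.3.3 (lmFit, eBayes with a trend on intensity) in a model of the group alone, without rescaling, and p-values were adjusted by Benjamini-Hochberg over all tested genes. SE and 95% intervals are those of limma. The fit was tested on simulated data. Pathway and marker lists are described by counts and medians, with no set test.

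The member genes, lists, tests and alternatives were chosen with earlier results of these data known. Values per library are given for the 3 largest positive and 3 largest negative differences of each arm and for Hmgcs1, Fdft1, Sqle, Insig1, Srebf2, Srebf1, Fasn, Acaca, Acly, Scd1 and Scd2. From each pathway list up to 4 called genes are named, or, in a list without calls, the 2 genes lowest in p, and of the marker lists Cd4, Cd3e, C1qb, Alas2, Cd79a, Adipoq, Mki67 and S100a8. Other members named for a range, and Cyp51, were named after their values were seen. 16 alternatives were run: another pseudocount, 2 other filters, 4 other scalings, 2 other variance models, a replicate block and each library left out in turn.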

Additional observations from a re-analysis of the deposited data

How the results depend on the processing

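Of 559 values of the 35 tested genes under the 16 alternatives, 1 passed the threshold, Fdps with the replicate number as a block (1 gene called, adjusted p = 0.0354, limma). Whether replicate numbers pair the libraries was not settled. Deviations of same-numbered libraries from their group means correlated at 0.03, 0.06 and 0.19 across genes, and number 3 alone correlated best with its own. Such deviations sum to 0 within each group of 3 libraries, so weak correlations cannot exclude pairing. The replicate block gave 1015 calls over all genes and 7 in the pathway lists, Erlin2 among them (adjusted p = 0.0414). Outside the block the smallest adjusted p was 0.0514, for Fdps without lean 3. Over all genes 678 calls became 368 without a filter, 434 under quantile normalization and 318 to 707 with 1 library left out. The 6 calls of the pathway lists became 3 without a filter, 3 under quantile normalization and 2 to 6 with 1 library left out. The median of the sterol arm was −0.20 under median-of-ratios scaling, −0.26 under quantile normalization and −0.0021 when libraries were scaled without haemoglobin and immunoglobulin genes. The median of all genes was −0.031 under median-of-ratios scaling, 0.17 as TPM, −0.032 under quantile normalization and 0.20 without haemoglobin and immunoglobulin genes. The sterol arm minus the fatty acid arm was −0.14 to −0.08 over the 4 scalings and −0.13 to −0.08 with 1 library left out.

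The sign changed in 51 of the 559 values, over 21 genes, of which Elovl5 had the largest reported difference (−0.26). Median-of-ratios scaling gave Hmgcs1 −0.028, Pmvk −0.10, Sc5d −0.14, Insig1 −0.060, Stard4 −0.075, Slc25a1 −0.0032, Acly −0.12 and Elovl6 −0.024. TPM gave Tm7sf2 0.044, Ebp 0.038, Scd2 0.054 and Srebf1 0.0044. Quantile normalization gave Hmgcs1 −0.077, Pmvk −0.10, Idi1 −0.0052, Nsdhl −0.015, Sc5d −0.14, Insig1 −0.070, Stard4 −0.18, Acly −0.0094, Elovl6 −0.18, Fads1 −0.075, Acsl3 −0.12 and Acsl4 −0.058. Scaling without haemoglobin and immunoglobulin genes gave Tm7sf2 0.077, Hsd17b7 0.014, Ebp 0.081, Acaca 0.021, Scd2 0.096 and Srebf1 0.048. With 1 library left out, the range was −0.12 to 0.031 for Acaca, −0.17 to 0.024 for Acss2, −0.10 to 0.017 for Ebp, −0.46 to 0.073 for Elovl5, −0.0079 to 0.15 for Elovl6, −0.12 to 0.17 for Pmvk and −0.062 to 0.089 for Sc5d. It was −0.075 to 0.040 for Scd2, −0.072 to 0.27 for Slc25a1, −0.18 to 0.0070 for Srebf1, −0.050 to 0.15 for Stard4 and −0.10 to 0.069 for Tm7sf2. The cause of these changes was not tested. With 3 libraries a group and no counts, the spread between libraries sets what could be detected.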

Other observations

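Some genes of the set lie in the same region of a chromosome, with like spread in 1 pair and unlike spread in 2. On chromosome 19, the highest library was 3.20 times the lowest for Fads2 and 1.19 times for the nearby Fads1. The same ratio was 2.86 for Scd1 and 1.18 for Scd2, on the same chromosome. On chromosome 3, Fdps ends at base 89101967 and Pmvk starts at base 89454541. Their ratios were 1.54 and 1.53, and lean 2 was the highest library for Fdps and lean 1 for Pmvk. Elovl5 varied 2.10-fold, through lean 3, whereas Acly varied 1.04-fold.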
